A study of Danio rerio with 15 samples.

Results

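The genes described here are 117 chromatin genes of zebrafish, out of 8796 genes that could be named on the array: histones, high mobility group proteins, the enzymes that add or remove histone and DNA marks, the adenosine triphosphate (ATP)-driven remodelers and the proteins that read histone marks. They were matched by gene symbol alone, from symbols such as hdac, kdm, kmt, smarc, chd, cbx, hmg and h2a. No measured value entered the match, but the symbol pattern was chosen with earlier results of these data known. The symbols matched 160 probe sets, which are groups of short probes that read the same transcript, and 30 of the genes had more than 1. Each gene is represented by the probe set with the highest mean. Of the 117 genes, 80 varied enough over the arrays to be tested (an interquartile range of at least 0.2 on the log2 scale) and 37 did not.

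DNA in the nucleus is wound on core histones and held compact by linker histones. Acetylation loosens this packing, methylation of histone lysines and arginines marks genes as active or silent, and readers such as heterochromatin protein 1 and the bromodomain proteins bind those marks. Remodelers use ATP to slide or evict nucleosomes. In irradiated cells chromatin around a DNA break is opened for repair and closed again, and the same machinery sets which genes of a tissue such as the liver can be transcribed.

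Liver RNA of wild-type male zebrafish, all 16 weeks old when the livers were taken, was read on 15 GeneChip Zebrafish Genome Arrays. The long-term response groups were irradiated with 0.1 or 1.0 Gy of γ-rays as embryos, 24 hours post fertilization. Fish of the acute response groups received 0.1 or 1.0 Gy as adults, 4 hours before analysis. Controls were not irradiated. Each of the 5 groups had 3 arrays, each from a pool of 2 livers. The embryos came from 1 pooled collection. The embryo groups were divided from the controls at 24 hours post fertilization, and the adult groups came from the control cohort. Whether the groups were then raised apart is not stated in the sources used here. Any effect of separate rearing could not be told apart from irradiation in the embryo groups. Age at exposure and time since exposure differ together between the embryo and adult groups, and no sham irradiation is described in the sources used here. The p-values measure the spread between liver pools of 1 batch of fish per group.

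All values are log2 expression levels as deposited, with array medians of 5.018 to 5.14. The record is at odds with itself for 4 arrays: by their source names, adult 0.1 Gy replicates 1 and 2 would be controls and control replicates 2 and 3 would be adult 0.1 Gy samples. Their titles, doses and timing say otherwise and were followed. Counts of called members, and values of some of them, are given with and without these arrays. Genes outside the members are given with all arrays only. Markers of hepatocytes were at a mean level of 13.45 to 13.53 in embryo groups, 13.32 to 13.66 in adult groups and 13.51 to 13.59 in controls. Of 10 tested, 3 were lower in embryo than in adult groups, or 30% beside 13.0% of all tested genes. The differences were -0.52 for cyp2k18, -0.38 for fga and -0.27 for hpxa. In the acute response 2 of these 3 (cyp2k18 and hpxa) were higher, or 20% of the 10 beside 14.8% of all tested genes. The 12 markers of exocrine pancreas were at 9.87 to 12.23 in embryo groups, 8.98 to 12.34 in adult groups and 10.08 to 11.59 in controls, with median differences of 0.35 for embryo minus control, -0.65 for adult minus control and 0.96 for embryo minus adult, the last positive in all 12. Muscle markers were at 5.21 to 6.85 in embryo groups, 5.32 to 7.93 in adult groups and 5.11 to 5.39 in controls, with median differences from control of 0.86 for embryo and 0.83 for adult groups. None of the pancreas or muscle markers was called. Of 5 tested intestine markers 1 was called higher in embryo than in adult groups, or 20% beside 23.1% of all tested genes. This was fabp2, at 2.29 ± 0.77 (adjusted p = 0.03), which stood at -2.07 in the acute response (adjusted p = 0.077). The part of these markers in the results below was not tested. In a piece of tissue, fewer cells of a type and less RNA per cell cannot be told apart.

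Most of the calls against control were decreases, among the members as among all tested genes. In the long-term response this depended on the scaling, since renewed quantile normalization gave 10 members higher and 8 lower. The acute response groups had 12 members higher and 29 lower than control of 80 tested, that is 15% and 36.2% of the members, where 14.8% and 27.9% of all 5468 tested genes were called. In the long-term response 8 members were higher and 16 lower, that is 10% and 20%, where 7.50% and 14.5% of all tested genes were called. In the direct comparison 24 members were higher and 15 lower in embryo than in adult groups, or 30% and 18.8%, where 23.1% and 13.0% of all tested genes were called. Of the 24, only cbx1b and smarca1 were also called higher than control in the long-term response. Of the 15, chd1, kdm5ba, kdm6al, kdm6ba, setd3 and smarca5 were also called lower than control there. The other tested probe sets of chd1, kdm6al and smarca5 were not called in either comparison. A gene was called when the limma adjusted p was under 0.05 both for the F-test over the 5 groups and for the comparison. The long-term and acute comparisons share the control arrays. Median differences over all 117 members were 0.05 for the long-term response, -0.04 for the acute response and 0.05 for embryo minus adult, beside 0.05, 0.05 and -0.01 over all genes.

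The control arrays with the doubtful source names weighed on these counts. Leaving out the 4 arrays left control replicate 1 as the only control and replicate 3 as the only adult 0.1 Gy array. Every difference from control in that fit rests on this 1 control array. A call lost there may reflect the fewer arrays, which was not tested. Without the 4 arrays the long-term count was 1 member (histh1l1), the acute count 18 and the embryo against adult count 27. Of the 41 acute calls 17 remained: brd3b, cbx1a, cbx5, chd2, ezh2, h1-10, hdac8, hist2h2l, histh1l1, hmgn1a, hmgn6, ing2, kat5a, kdm7aa, kmt5aa, setd6 and sirt6. Of the 39 calls between embryo and adult irradiation 27 remained, and the 12 that were lost were chd1, hdac10, hmga1a, hmgb3b, ing3, kdm6al, prmt2, prmt6, setd3, setd7, smarca5 and smarcb1a. The embryo minus adult differences of these lost genes kept their direction and about their size. They were 0.28 to 0.44 and -0.47 to -0.32 without the 4 arrays, beside 0.21 to 0.46 and -0.45 to -0.26 with all arrays. A call also needed the F-test over the 5 groups, controls included, so a lost call is no measure of this comparison alone. Leaving out only control replicates 2 and 3 gave 1, 20 and 31 called members. Each of these 2 arrays alone moved the long-term count, to 6 without control replicate 2 and to 8 without control replicate 3. Without control replicate 1 it was 25, beside 24 with all arrays. For some members control replicate 1 was the control nearest to the irradiated arrays (h1-10, at 7.22 beside 5.81 and 5.84). For others it was not (histh1l1, at 7.54 beside 8.27 and 7.43).

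**Figure D1:**
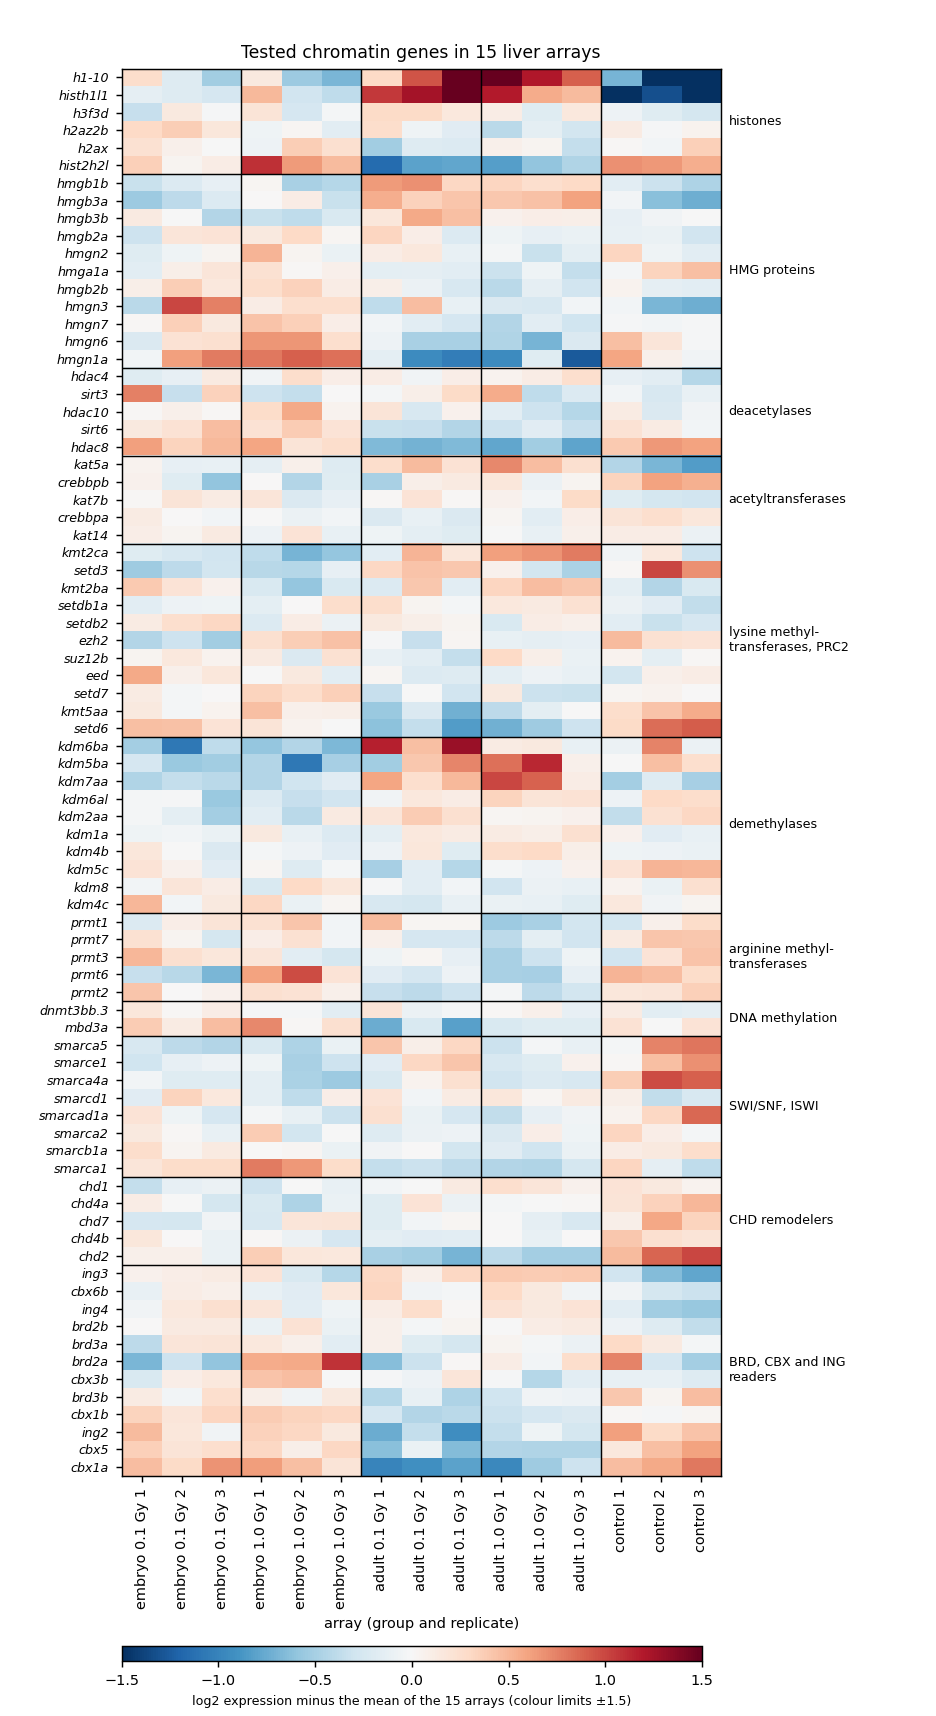
Log2 expression of the 80 tested chromatin genes (down the page, by role, italic symbols) in the 15 liver arrays (across), each gene with its mean over the 15 arrays subtracted; red is above and blue below that mean, with colours limited to 1.5 either way. The linker histones at the top are lowest in the 3 controls and highest in the 6 adult arrays, apart from histh1l1 in embryo 1.0 Gy replicate 1, and cbx1a at the bottom is low in the adult arrays.

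Linker histones gave the largest changes against control of the 80 tested members, at 1 probe set a gene. histh1l1, a linker histone of the H1 family, had levels of 9.46, 9.40 and 9.34 after 0.1 Gy and 10.07, 9.30 and 9.21 after 1.0 Gy to embryos. After adult irradiation the levels were 10.65, 10.84 and 11.34 at 0.1 Gy and 10.78, 10.15 and 10.06 at 1.0 Gy, and in controls 7.54, 8.27 and 7.43. Every irradiated array lay above every control, and the adult arrays lay above the embryo arrays but for embryo 1.0 Gy replicate 1. The gene rose by 1.72 ± 0.24 (log2 difference ± SE, 3.29-fold, adjusted p = 0.00036) in the long-term response and by 2.89 ± 0.24 (7.42-fold, adjusted p = 1.2e-06) in the acute response. Embryo irradiation left it 2.26-fold lower than adult irradiation (-1.17 ± 0.19, adjusted p = 0.00037). Without the 4 arrays the long-term difference was 1.92 (adjusted p = 0.017).

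A second linker histone, h1-10, followed the same order of groups. Its levels were 8.18, 7.72 and 7.39 and 8.06, 7.37 and 7.23 in the embryo 0.1 and 1.0 Gy groups. The adult groups had 8.21, 8.85 and 9.43 at 0.1 Gy and 9.45, 9.11 and 8.81 at 1.0 Gy, and the controls 7.22, 5.81 and 5.84. All 3 sets of arrays were separate, although control replicate 1 came close to the lowest embryo array. The acute rise was 2.69 ± 0.33 (6.43-fold, adjusted p = 2.7e-05), and the long-term rise 1.37 ± 0.33 (adjusted p = 0.0098). That long-term difference was 0.43 (adjusted p = 0.64) without the 4 arrays, while the acute one was 2.05 and stayed called.

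The core histone hist2h2l went another way and was the only core histone called against control. This gene, an H2-type core histone by its name, had 10.53, 10.21 and 10.28 in the embryo 0.1 Gy arrays and 11.26, 10.81 and 10.64 in the embryo 1.0 Gy arrays. In adult livers it was at 9.01, 9.37 and 9.39 after 0.1 Gy and 9.34, 9.57 and 9.72 after 1.0 Gy, against 10.85, 10.82 and 10.71 in controls. All 6 adult arrays were therefore below all others. It fell by 1.39 ± 0.14 in the acute response (2.62-fold, adjusted p = 6.2e-06) and was 2.33-fold higher after embryo than after adult irradiation (1.22 ± 0.12, adjusted p = 6.2e-06), while the long-term difference was -0.17 (adjusted p = 0.41). h2az2b, which encodes an H2A.Z variant, was 0.24 ± 0.09 higher in embryo than in adult groups (adjusted p = 0.042), with arrays that overlapped. h2ax, whose protein is phosphorylated at DNA breaks, was not called, with an embryo minus adult difference of 0.33 at an adjusted p of 0.033 and an F-test at 0.089. h3f3d, a replacement H3.3 histone, was not called either (acute difference 0.31, adjusted p = 0.056). Histone genes have near-identical copies that can share probes, which was not tested.

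**Figure D2:**
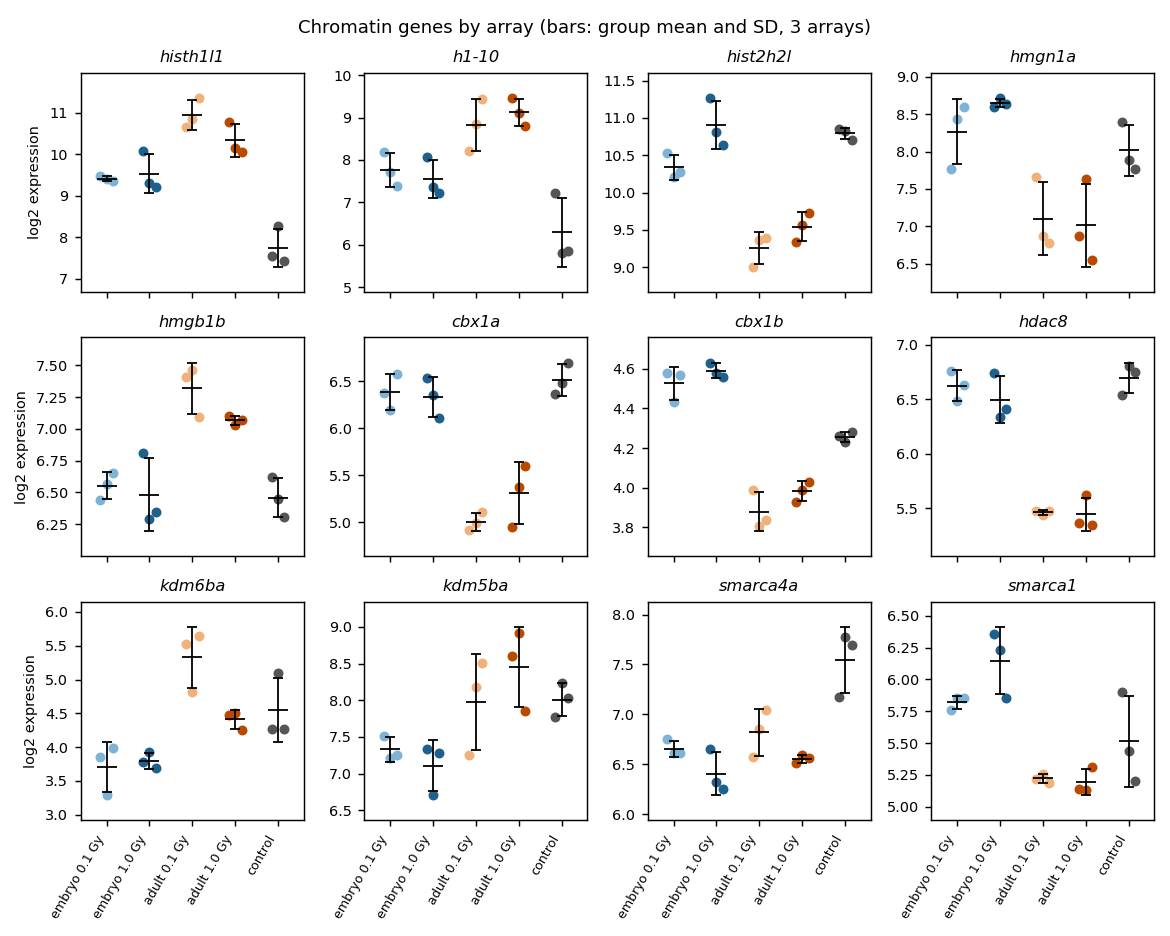
Log2 expression (vertical axes, each panel with its own range) of 12 chromatin genes in the 5 groups; points are single arrays and bars the mean and SD of 3. In histh1l1 and h1-10 the order of the group means is adult above embryo above control, whereas hist2h2l, cbx1a and hdac8 are low in the adult groups only.

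High mobility group genes were called in both directions between the times of irradiation, 5 higher and 3 lower in embryo than in adult groups of 11 tested, that is 45.5% and 27.3% beside 23.1% and 13.0% of all tested genes. HMGN proteins bind nucleosomes and loosen linker histone packing, and 3 of 5 tested members were higher after embryo than after adult irradiation. The nucleosome-binding gene hmgn1a had 7.77, 8.43 and 8.59 and 8.60, 8.71 and 8.64 in the embryo 0.1 and 1.0 Gy arrays, against 7.66, 6.87 and 6.77 and 6.87, 7.63 and 6.55 in the adult 0.1 and 1.0 Gy arrays. Every embryo array was above every adult one. The controls lay within the embryo range at 8.40 and 7.89 and just below it at 7.76. The embryo minus adult difference was 1.40 ± 0.21 (2.64-fold, adjusted p = 0.00018), the largest increase of this comparison among the members, and the acute decrease was -0.96 ± 0.26 (adjusted p = 0.0074). The other probe set of hmgn1a gave 0.13 (adjusted p = 0.27). hmgn6 (0.71 ± 0.13, adjusted p = 0.00085) and hmgn7 (0.46 ± 0.09, adjusted p = 0.00091) were higher in embryo than in adult groups too, and hmgn6 fell by 0.60 ± 0.16 in the acute response (adjusted p = 0.0069).

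HMGB proteins bend DNA, and their members moved in both directions. hmgb1b ranged over 6.29 to 6.81 (median 6.50) in embryo arrays and 7.03 to 7.46 (median 7.10) in adult arrays, with controls at 6.62, 6.45 and 6.31. The adult arrays stood clear of the rest. hmgb1b rose by 0.73 ± 0.13 in the acute response (adjusted p = 0.00039), against 0.06 in the long-term response. Without the 4 arrays this acute rise was 0.46. For hmgb3a the embryo arrays ranged over 5.80 to 6.45, the adult arrays over 6.68 to 6.94 and the controls over 5.61 to 6.30. This was an acute rise of 0.92 ± 0.15 (adjusted p = 0.00021) that its 2 other probe sets also showed, at 0.41 and 0.49. Without the 4 arrays the acute rise of hmgb3a was 0.49 at its representative probe set. Its paralog hmgb3b rose by 0.30 ± 0.12 in the acute response and was 0.45 ± 0.10 lower in embryo than in adult groups. By contrast hmgb2b (0.40 ± 0.09, adjusted p = 0.0025) and hmga1a, an AT-hook protein (0.27 ± 0.10, adjusted p = 0.041), were higher in embryo groups. No member of these families was called in the long-term response, where 7.50% of all tested genes were higher and 14.5% lower. hmgb1a, at a mean of 10.5, varied too little to be tested.

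Of 5 tested deacetylases, 2 fell in the acute response, or 40% beside 27.9% of all tested genes. None was called in the long-term response, where 7.50% of all tested genes were higher and 14.5% lower. hdac8, a class I lysine deacetylase that acts on the cohesin ring in human cells, had 6.76, 6.48 and 6.63 in embryo 0.1 Gy arrays and 6.74, 6.34 and 6.41 in embryo 1.0 Gy arrays. The adult arrays gave 5.48, 5.44 and 5.48 at 0.1 Gy and 5.37, 5.62 and 5.35 at 1.0 Gy, against 6.54, 6.80 and 6.75 in controls. The gap between adult arrays and all others was wider than the range within any group. Its acute decrease was -1.24 ± 0.11 (2.36-fold, adjusted p = 2.2e-06) and its embryo minus adult difference 1.1 ± 0.09 (adjusted p = 2.1e-06), with a long-term difference of -0.14 (adjusted p = 0.38).

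Sirtuin 6 deacetylates lysine 9 of H3 and takes part in DNA repair in mammals. sirt6 ranged over 5.18 to 5.50 in embryo arrays, 4.59 to 4.86 in adult arrays and 4.99 to 5.25 in controls, so that the adult arrays were the lowest. It fell by 0.43 ± 0.10 in the acute response (adjusted p = 0.0025) and was 0.60 ± 0.08 higher in embryo than in adult groups (adjusted p = 6.9e-05). hdac10, a polyamine deacetylase, was 0.32 ± 0.10 higher in embryo than in adult groups (adjusted p = 0.029), with overlapping arrays. sirt3 was not called, nor was hdac4, whose acute difference was 0.33 (adjusted p = 0.02) with an F-test at 0.092, and 6 deacetylases, among them the NuRD and Sin3 subunit hdac1 at a mean of 8.03, were not tested.

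Among acetyltransferases the Tip60 gene rose while the CREB-binding proteins fell. kat5a, which encodes Tip60, the acetyltransferase of the NuA4 complex that acts at DNA breaks, had 6.97, 6.79 and 6.80 in embryo 0.1 Gy arrays and 6.78, 6.99 and 6.72 in embryo 1.0 Gy arrays. It had 7.18, 7.39 and 7.13 and 7.63, 7.38 and 7.16 in adult 0.1 and 1.0 Gy arrays, and 6.48, 6.23 and 6.08 in controls. Adult, embryo and control arrays did not overlap. The rise was 0.58 ± 0.12 (1.5-fold, adjusted p = 0.0045) in the long-term response and 1.05 ± 0.12 (2.07-fold, adjusted p = 1.7e-05) in the acute response. Left without the 4 arrays, these were 0.36 (adjusted p = 0.42) and 0.78. crebbpb, a paralog of the CREB-binding protein, which acetylates H3 lysine 27, fell by 0.71 ± 0.16 (adjusted p = 0.0074) in the long-term response and by 0.52 ± 0.16 in the acute response (adjusted p = 0.018). The other paralog, crebbpa, was called only in the acute response (-0.30 ± 0.08, adjusted p = 0.0083), with a long-term difference of -0.22. Without the 4 arrays none of these was called, at -0.56 and -0.25 for crebbpb and -0.31 for the acute difference of crebbpa.

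**Figure D3:**
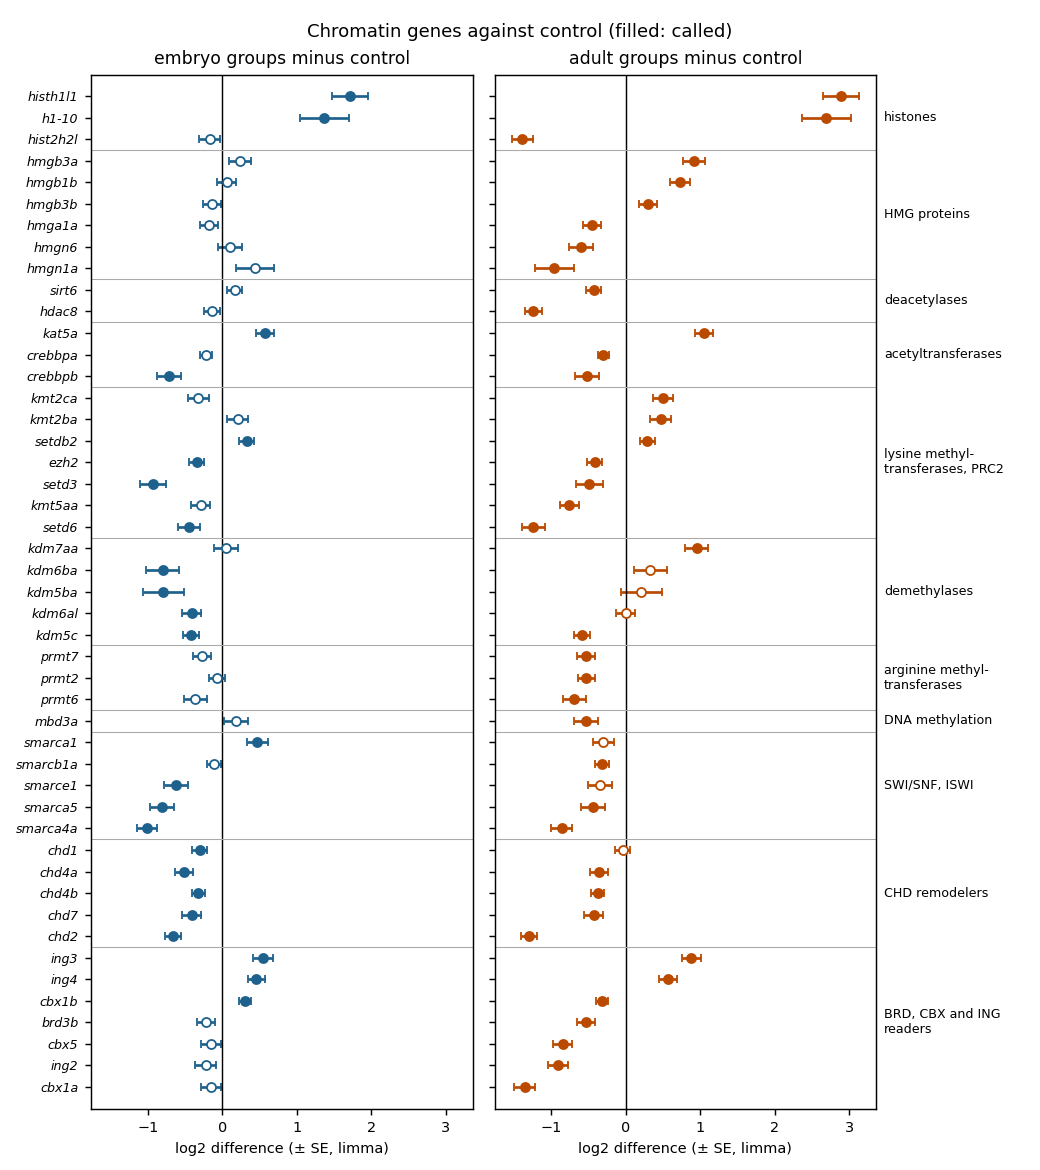
Log2 difference from control (horizontal axes, ± SE of limma) of the chromatin genes called against control, for the embryo groups on the left and the adult groups on the right; filled points were called and open points were not. The CHD genes lie below 0 on the left, and cbx1a, hdac8 and hist2h2l lie below -1 on the right only.

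Lysine methyltransferases, with the Polycomb repressive complex 2, had 3 members higher and 4 lower in the acute response of 11 tested. These are 27.3% and 36.4%, beside 14.8% and 27.9% of all tested genes. In the long-term response 1 was higher and 3 were lower, or 9.09% and 27.3% beside 7.50% and 14.5%. setd6, which methylates the NF-κB subunit RelA in human cells, ranged over 5.75 to 6.21 (median 5.96) in embryo arrays and 4.92 to 5.45 (median 5.18) in adult arrays, with controls at 6.04, 6.59 and 6.66. Adult arrays were below all others. It fell by 1.24 ± 0.15 in the acute response (2.36-fold, adjusted p = 2e-05) and by 0.45 ± 0.15 (adjusted p = 0.04) in the long-term response, and this long-term difference was -0.07 without the 4 arrays. kmt5aa, a writer of H4 lysine 20 monomethylation, fell by 0.76 ± 0.13 in the acute response (adjusted p = 0.00041) and was 0.47 ± 0.11 higher in embryo than in adult groups.

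Opposite to these, 2 writers of H3 lysine 4 methylation rose after adult irradiation. kmt2ca ranged over 6.12 to 6.63 in embryo arrays, 6.66 to 7.59 in adult arrays and 6.51 to 6.97 in controls. The embryo and adult arrays did not overlap, and the difference was -0.83 ± 0.11 (1.77-fold, adjusted p = 7.9e-05). kmt2ca rose by 0.50 ± 0.14 in the acute response (adjusted p = 0.008) and kmt2ba by 0.47 ± 0.14 (adjusted p = 0.013), and without the 4 arrays these were 0.49 and 0.26, neither called. setd7, an H3 lysine 4 monomethyltransferase, was 0.37 ± 0.09 higher in embryo than in adult groups.

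The largest long-term decrease of this family was that of setd3, which methylates a histidine of actin rather than chromatin. Its levels were 8.37 to 8.78 in embryo arrays and 8.43 to 9.33 in adult arrays, against 8.92, 9.90 and 9.59 in controls. Control replicate 1 lay within the adult range, and the other 2 controls were above all irradiated arrays. The long-term difference was -0.93 ± 0.18 (1.90-fold, adjusted p = 0.0025), and a second probe set gave -0.82. Without the 4 arrays it was -0.38 (adjusted p = 0.46), and the acute difference, -0.49 ± 0.18, turned to 0.08. setdb2, an H3 lysine 9 methyltransferase, rose by 0.33 ± 0.10 in the long-term response and by 0.29 ± 0.10 in the acute response, and setdb1a, of the same family, was not called (acute difference 0.35, adjusted p = 0.016, F-test 0.078).

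Lysine demethylases were lower after embryo than after adult irradiation in 4 of 10 tested members, and none was called higher, where 13.0% of all tested genes were lower and 23.1% higher. kdm6ba, which removes the Polycomb mark at H3 lysine 27, had 3.85, 3.29 and 3.98 and 3.78, 3.92 and 3.69 in embryo 0.1 and 1.0 Gy arrays. The adult arrays were at 5.52, 4.81 and 5.65 after 0.1 Gy and 4.48, 4.51 and 4.25 after 1.0 Gy, and the controls at 4.27, 5.1 and 4.27. All embryo arrays were below all adult and control arrays. The embryo levels, all under 4, are low. The adult arrays did not overlap between doses, at 4.81 to 5.65 after 0.1 Gy and 4.25 to 4.51 after 1.0 Gy, although this dose difference was not called. The embryo minus adult difference averages over these doses. The embryo minus adult difference was -1.12 ± 0.18 (2.18-fold, adjusted p = 0.00028), and the long-term decrease -0.80 ± 0.22 (adjusted p = 0.018), against 0.33 (adjusted p = 0.21) in the acute response. Without the 4 arrays the embryo minus adult difference was -1.28 and the long-term difference -0.52.

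kdm5ba, an H3 lysine 4 demethylase, ranged over 6.71 to 7.52 (median 7.26) in embryo arrays and 7.25 to 8.91 (median 8.34) in adult arrays, with controls at 7.77, 8.23 and 8.03. Embryo arrays were below the controls and overlapped the adult arrays through adult 0.1 Gy replicate 1. The embryo minus adult difference of this gene was -0.99 ± 0.22 (1.99-fold, adjusted p = 0.0027), and the long-term decrease was -0.79 ± 0.27 (adjusted p = 0.046). That long-term call was lost in 8 of the 15 fits that left out 1 array. Without the 4 arrays the embryo minus adult difference was -1.26 and the long-term difference -0.55. kdm7aa, which acts on H3 lysines 9 and 27, ranged over 6.33 to 6.61 in embryo arrays, 6.90 to 7.78 in adult arrays and 6.27 to 6.59 in controls, and rose by 0.95 ± 0.16 only in the acute response (adjusted p = 0.00038). Its other probe set gave 0.27 (adjusted p = 0.074). kdm6al, a relative of the H3 lysine 27 demethylase UTX, was called lower in embryo groups (-0.41 ± 0.10 against adult), yet its 2 other probe sets gave -0.20 and -0.10. In the long-term response, where kdm6al was also called lower, both of these probe sets were at -0.01. kdm5c, another H3 lysine 4 demethylase, fell by 0.42 ± 0.11 in the long-term response and by 0.59 ± 0.11 in the acute response.

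Arginine methyltransferases were lower after adult irradiation in 3 of 5 tested members, where 27.9% of all tested genes were. prmt6, which methylates arginine 2 of H3, fell by 0.69 ± 0.15 in the acute response (adjusted p = 0.0019), prmt2 by 0.53 ± 0.11 (adjusted p = 0.0015) and prmt7 by 0.53 ± 0.12 (adjusted p = 0.0036). For prmt2 the embryo arrays ranged over 3.69 to 4.10, the adult arrays over 3.30 to 3.66 and the controls over 3.86 to 4.05, so that the adult arrays were the lowest. These levels are low: prmt2, with a mean of 3.69, was among the 4 tested members with a mean under 4. None of these 3 acute calls remained without the 4 arrays, where the differences were -0.73, -0.45 and -0.40. prmt1, which passed the F-test (adjusted p = 0.038) but no comparison, and prmt3 were not called. Of the 8 genes of DNA methylation and its readers only 2 were tested, since the maintenance methyltransferase dnmt1 (mean level 5.25), its partner uhrf1 (3.99) and 4 others barely varied. mbd3a, a NuRD subunit, was 0.72 ± 0.13 higher in embryo than in adult groups (1.65-fold, adjusted p = 0.00062), where embryo arrays ranged over 6.86 to 7.56, adult arrays over 6.03 to 6.66 and controls over 6.84 to 7.06.

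**Figure D4:**
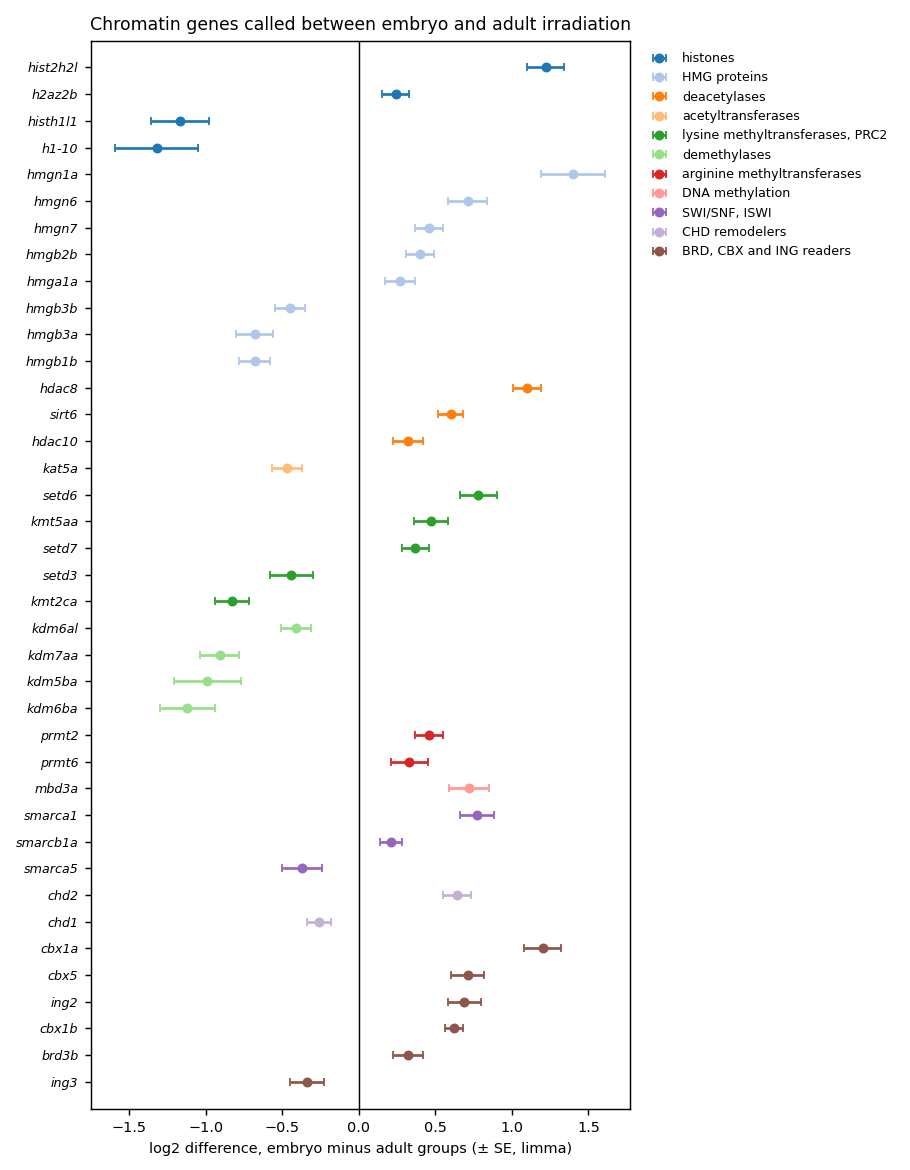
Log2 difference of the embryo minus the adult groups (horizontal axis, ± SE of limma) for the 39 chromatin genes called in that comparison, coloured by role and ordered by size within each role. The called demethylases are all below 0, and the called deacetylases and arginine methyltransferases all above 0.

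Remodelers of the SWI/SNF and ISWI type fell wherever they were called against control, but for a long-term rise of smarca1. Of 8 tested, 3 fell in the acute response, or 37.5% beside 27.9% of all tested genes. In the long-term response 3 fell and 1 rose, or 37.5% and 12.5% beside 14.5% and 7.50%. smarca4a, the BRG1 motor of SWI/SNF, had 6.75, 6.61 and 6.61 in embryo 0.1 Gy arrays and 6.65, 6.32 and 6.25 in embryo 1.0 Gy arrays. Adult arrays gave 6.57, 6.85 and 7.04 at 0.1 Gy and 6.51, 6.59 and 6.56 at 1.0 Gy, against 7.17, 7.78 and 7.69 in controls. All irradiated arrays were below all controls. Its long-term decrease of -1.01 ± 0.14 (2.02-fold, adjusted p = 0.00039) was the largest of any member at its representative probe set (the second probe set of chd7 fell further), and the acute decrease was -0.86 ± 0.14 (1.82-fold, adjusted p = 0.00029). A second probe set gave -0.95 and -0.62. The differences were -0.64 (adjusted p = 0.098) and -0.37 when the 4 arrays were left out.

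The ISWI motors moved apart. smarca5 ranged over 6.53 to 6.89 in embryo arrays and 6.67 to 7.41 in adult arrays, with controls at 6.96, 7.73 and 7.79, and fell by 0.81 ± 0.16 in the long-term response (adjusted p = 0.0034). Its acute difference of -0.44 ± 0.16 turned to 0.11 without the 4 arrays, and another probe set gave -0.03 and 0.14. smarca1 ranged over 5.76 to 6.36 in embryo arrays and 5.13 to 5.31 in adult arrays, which did not overlap, with widely spread controls at 5.90, 5.44 and 5.20. It was 0.77 ± 0.11 higher in embryo than in adult groups (1.71-fold, adjusted p = 0.00016). The long-term rise of smarca1, 0.47 ± 0.14 (adjusted p = 0.028), was 0.09 without the 4 arrays. Of the SWI/SNF subunits, smarce1 fell by 0.62 ± 0.16 in the long-term response and smarcb1a by 0.32 ± 0.09 in the acute response, and smarca2 and smarcd1 were not called. The related smarcad1a, at -0.51 (adjusted p = 0.044) and -0.52 (adjusted p = 0.021), was not called because its F-test gave 0.093.

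CHD remodelers fell in the long-term response in 5 of 5 tested members and in the acute response in 4, where 14.5% and 27.9% of all tested genes were lower. Over the 6 members the median difference was -0.37 in both, beside 0.05 over all genes. The chromodomain remodeler chd2, which deposits H3.3 at active genes in mammals, ranged over 6.47 to 6.94 in embryo arrays and 5.87 to 6.17 in adult arrays, against 7.04, 7.44 and 7.57 in controls. Adult, embryo and control arrays were separate, with the adult arrays lowest and the controls highest. The long-term decrease was -0.66 ± 0.11 (1.58-fold, adjusted p = 0.0014) and the acute decrease -1.30 ± 0.11 (2.47-fold, adjusted p = 2e-06), with -0.78 and -1.17 at a second probe set. The NuRD motors chd4a and chd4b fell by 0.51 ± 0.12 and 0.32 ± 0.09 in the long-term response and by 0.36 ± 0.12 and 0.38 ± 0.09 in the acute response. Neither of 2 other chd4b probe sets was called, at -0.35 and -0.25 in the long-term response and -0.33 and -0.43 in the acute response. chd7 fell by 0.41 ± 0.13 in the long-term response and by 0.43 ± 0.13 in the acute response, calls that were lost in 13 and 12 of the 15 fits that left out 1 array. Its other probe set fell much further, by 1.60 ± 0.22 (adjusted p = 0.00035) and 1.38 ± 0.22 (adjusted p = 0.0002), so the size of the chd7 decrease depends on the probe set. Against control chd1 was called only in the long-term response, at -0.30 ± 0.10 (adjusted p = 0.04), a call lost in 12 of the 15 fits. Its other probe set gave 0.13 (adjusted p = 0.37) there and -0.03 for embryo minus adult. With the 4 arrays left out, the long-term differences lay between -0.45 (chd4b) and -0.16 (chd7) with none called, and in the acute response chd2 alone stayed called, at -1.05.

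Of 12 tested readers, 5 were higher and 1 was lower after embryo than after adult irradiation (41.7% and 8.33%, beside 23.1% and 13.0% of all tested genes). cbx1a, a heterochromatin protein 1 gene, had 6.38, 6.20 and 6.58 in embryo 0.1 Gy arrays and 6.54, 6.36 and 6.11 in embryo 1.0 Gy arrays. In adult arrays it had 4.92, 4.99 and 5.11 at 0.1 Gy and 4.95, 5.38 and 5.60 at 1.0 Gy, and in controls 6.37, 6.48 and 6.70. The adult arrays alone were low, and embryo and control arrays overlapped. It was 1.2 ± 0.12 higher in embryo than in adult groups (2.30-fold, adjusted p = 7.3e-06) and fell by 1.36 ± 0.14 in the acute response (2.56-fold, adjusted p = 8.7e-06). cbx5, of the same family, fell by 0.85 ± 0.13 in the acute response (1.81-fold, adjusted p = 0.00015), and its other probe set gave -0.34, not called.

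cbx1b, the paralog of cbx1a, was the only member called in opposite directions against control. It stood at 4.43 to 4.63 in embryo arrays and 3.81 to 4.03 in adult arrays, between which the controls, at 4.26, 4.23 and 4.28, lay apart from both. The long-term rise was 0.30 ± 0.08 (adjusted p = 0.014) and the acute decrease -0.32 ± 0.08 (adjusted p = 0.0039), and the embryo minus adult difference 0.62 ± 0.06 (1.54-fold, adjusted p = 9.5e-06). These were 0.29 (adjusted p = 0.35), -0.35 (adjusted p = 0.12) and 0.64 without the 4 arrays, and the embryo minus adult difference was still called.

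ING proteins bind trimethylated lysine 4 of H3 and bring enzyme complexes to it. ing2, of the Sin3 deacetylase complex, ranged over 5.51 to 6.03 in embryo arrays, 4.63 to 5.49 in adult arrays and 5.85 to 6.18 in controls, and fell by 0.91 ± 0.14 in the acute response (1.87-fold, adjusted p = 0.00017). ing3, which belongs with kat5a to the NuA4 complex, ranged over 7.25 to 7.88 in embryo arrays, 7.75 to 8.07 in adult arrays and 6.89 to 7.39 in controls. The controls were below the adult arrays and overlapped the embryo arrays. ing3 rose by 0.55 ± 0.13 (adjusted p = 0.011) in the long-term response and by 0.88 ± 0.13 in the acute response (adjusted p = 0.00014). ing4, of the HBO1 acetyltransferase complex, rose by 0.46 ± 0.12 in the long-term response and by 0.57 ± 0.12 in the acute response. Without the 4 arrays neither was called against control, at 0.26 and 0.64 for ing3 and 0.20 and 0.25 for ing4. The bromodomain reader brd3b fell by 0.54 ± 0.12 in the acute response, where a second probe set was called at -0.40 and another, at -0.38, was not.

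Dose separated 3 members, all within the embryo groups and all lower at 0.1 than at 1.0 Gy, out of 80 tested, where 0.823% of all tested genes were called in that direction. prmt6 had 5.70, 5.62 and 5.36 after 0.1 Gy and 6.65, 7.02 and 6.25 after 1.0 Gy to embryos, against 6.55, 6.51 and 6.32 in controls. The 0.1 Gy arrays were below both other groups. The 0.1 minus 1.0 Gy difference was -1.08 ± 0.17 (2.11-fold, adjusted p = 0.0066). In the adult groups it was 0.20 ± 0.17 (adjusted p = 0.68), and the time-dose interaction, the difference of these differences divided by 2, was called at -0.64 ± 0.12 (adjusted p = 0.032), the single member so called where 0.640% of all tested genes were.

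ezh2, the methyltransferase of Polycomb repressive complex 2, had 5.34, 5.47 and 5.25 at 0.1 Gy and 6.02, 6.15 and 6.22 at 1.0 Gy in embryo groups, with controls at 6.25, 6.0 and 5.98. The low dose arrays were apart from the controls, and the high dose arrays were not. The difference was -0.77 ± 0.12 (1.71-fold, adjusted p = 0.0066) within the embryo groups and 0.01 within the adult groups, and its interaction, -0.39, had an adjusted p of 0.053. The other tested ezh2 probe set gave -0.26 (adjusted p = 0.42) for the embryo doses. Adult arrays of ezh2 were at 5.76, 5.43 and 5.81 after 0.1 Gy and 5.67, 5.64 and 5.65 after 1.0 Gy. All of them were below the controls. This acute decrease was called, with differences of -0.46 to -0.33 in the 15 fits that left out 1 array. At the other tested probe set the acute difference was -0.34, not called. The complex's other tested subunits, eed and suz12b, were not called. brd2a, a bromodomain reader of acetylated histones, had 7.51, 7.89 and 7.60 at 0.1 Gy and 8.75, 8.76 and 9.28 at 1.0 Gy, a difference of -1.26 ± 0.27 (2.40-fold, adjusted p = 0.038), and its controls spread over 8.94, 7.95 and 7.69. The 3 other brd2a probe sets gave -0.40, -0.51 and -0.87, none called, and 1 of them was called against control, at 0.67 for the embryo groups and 0.48 for the adult groups. No member was called for dose within the adult groups (13 at an unadjusted p under 0.05) or for dose over both times (12).

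**Figure D5:**
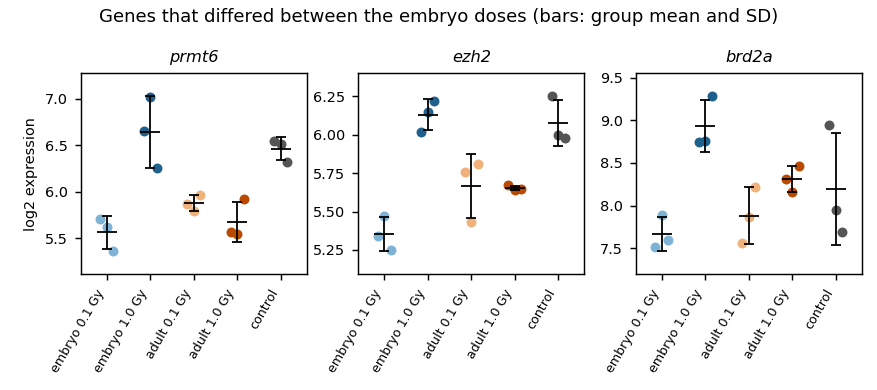
Log2 expression (vertical axes, each panel with its own range) of the 3 chromatin genes that differed between 0.1 and 1.0 Gy in the embryo groups, in all 5 groups; points are single arrays, bars the mean and SD of 3. In each panel the embryo 0.1 Gy arrays lie below the embryo 1.0 Gy arrays, while the adult dose groups differ by 0.20 or less for prmt6 and ezh2.

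Other genes of the same complexes, found by lists of names rather than by the symbol pattern, gave these counts. The values of all listed genes are with all arrays, and whether they hold without the 4 arrays with doubtful source names was not tested. Histone chaperones carry histones to and from DNA, and of 16 tested 9 fell and 1 rose after adult irradiation, that is 56.2% and 6.25% where 27.9% and 14.8% of all tested genes did. Embryo groups had 7 of them higher and 0 lower than adult groups, beside 23.1% and 13.0% of all tested genes. rbbp4, a chaperone shared by NuRD, Sin3 and Polycomb complexes, fell by 1.22 ± 0.14 in the acute response (adjusted p = 1.6e-05) and by 0.73 ± 0.14 in the long-term response (adjusted p = 0.0028). The acute differences of setb and of ssrp1a, a subunit of the FACT chaperone, were -0.76 ± 0.08 and -0.87 ± 0.15. Of 21 tested partner subunits of deacetylase and remodeler complexes, 8 fell and 1 rose in the acute response (38.1% and 4.76%) and 5 fell and 1 rose in the long-term response (23.8% and 4.76%), where 14.5% and 7.50% of all tested genes did in the long-term response. rcor1, the CoREST scaffold of the demethylase Kdm1a, was the lowest in the acute response (-1.47 ± 0.14, adjusted p = 4.5e-06), and sap130b, a Sin3 subunit, in the long-term response (-1.48 ± 0.23, adjusted p = 0.0007).

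Partner subunits of acetyl- and methyltransferase complexes (23 tested) had 3 higher and 6 lower in the acute response, shares of 13% and 26.1% that are near the 14.8% and 27.9% of all tested genes. The long-term response had 5 higher and 3 lower (21.7% and 13%, beside 7.50% and 14.5%), and embryo groups had 9 higher and 3 lower than adult groups (39.1% and 13%, beside 23.1% and 13.0%). wdr5, a core subunit of the H3 lysine 4 methyltransferases, fell by 1.15 ± 0.14 in the acute response. hcfc1a and hcfc1b, paralogs of a scaffold of those complexes, fell by 1.32 ± 0.14 and 1.37 ± 0.18. pcgf5b, a Polycomb repressive complex 1 subunit, rose by 1.52 ± 0.17 (adjusted p = 1.3e-05), and rnf2, the ubiquitin ligase of that complex, by 0.61 ± 0.13. In the long-term response taf9 (0.41 ± 0.10), morf4l1 (0.48 ± 0.13), sgf29 (0.40 ± 0.09) and ash2l (0.41 ± 0.13) rose.

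Genes of DNA replication and mitosis, which are active in cycling cells, were at a mean level of 4.89 to 5.14 in embryo arrays, 4.81 to 5.04 in adult arrays and 4.76 to 4.92 in controls. Of 19 tested, 3 rose in the long-term response, or 15.8% beside 7.50% of all tested genes. In the acute response 3 rose and 3 fell (15.8% each, beside 14.8% and 27.9%). Embryo groups had 6 higher and 1 lower than adult groups (31.6% and 5.26%, beside 23.1% and 13.0%). slbp2, which encodes a histone mRNA stem-loop binding protein, had the largest embryo minus adult difference of the list (1.28 ± 0.14, adjusted p = 1.9e-05), and pcna, the sliding clamp of replication, was 0.71 ± 0.16 higher in embryo than in adult groups. The cohesin and insulator list had 1 member higher and 1 lower of 7 tested in the acute response, stag2b (0.56 ± 0.10) and pds5b (-0.34 ± 0.09). Each was 14.3% of those tested, beside 14.8% and 27.9% of all tested genes. Leukocyte markers had 4 of 12 tested higher in the acute response, 33.3% beside 14.8% of all tested genes. These were cxcr4b (0.67 ± 0.20), cd74a (0.65 ± 0.23), mpx (0.46 ± 0.14) and rag1 (0.26 ± 0.08). Among the others, lyz was at 0.23, lcp1 at -0.15 and coro1a at -0.03, none called. In the long-term response the leukocyte markers had 1 higher, cd74a (0.84 ± 0.23), or 8.33% beside 7.50%. Their mean levels overlapped between groups (5.72 to 6.27 in embryo, 5.84 to 6.05 in adult and 5.59 to 5.89 in control arrays), and their part in the chromatin results was not tested.

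The pattern of 3 members over the 15 arrays was compared with every other gene. The genes most like histh1l1, the largest acute increase, were ulk1b (Pearson's r = 0.952), cry1b (0.944) and vps37a (0.939). For hist2h2l, the largest acute decrease, they were sephs1 (0.959), serpinh1b (0.953) and ube2nb (0.953), and for smarca4a, the largest long-term decrease at 1 probe set a gene, sfpq (0.952), nup50 (0.950) and rab1ab (0.946). These correlations run over arrays that share the group differences and are given as a description.

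The remaining 37 members had an interquartile range under 0.2 and were not tested. Their mean levels ran over 3.03 to 10.5 with a median of 5.06, and 11 were under 4. They included hdac1, hdac3, the Trithorax-type kmt2a and kmt2e, suv39h1a, which methylates H3 lysine 9, and kat8. This filter can pass over a change confined to 1 group. The untested probe set of kmt2e was at 7.53, 7.62 and 7.56 in adult 1.0 Gy arrays and at 6.83 to 7.25 in all other arrays. A second probe set of kmt2e was called in the acute response, at 0.47, and between embryo and adult groups, at -0.34. Between embryo and adult groups, 15 tested members had all 6 embryo arrays above all 6 adult arrays and 7 had all below, where 13.0% and 5.76% of all tested genes did so.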

How the data were processed

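Liver RNA was hybridised to 15 arrays in 5 groups of 3. The authors deposited log2 expression per probe set, which they had quantile normalized and summarized by Robust Multiarray Average after a quality check with affyPLM (versions not given in the sources used here). These values were not changed. Of 15617 probe sets, 115 manufacturer controls were left out. Names came from the array annotation, updated by Entrez identifier: 10795 probe sets had 1 symbol, 135 several and 4572 none. Probe sets that varied by an interquartile range of 0.2 or more, 8634 in all, were fitted with limma 3.58.1 in R 4.3.3 (5 group means, moderated variances, Benjamini-Hochberg adjustment), and 4352 passed the F-test. A gene was called where the F-test and the comparison had an adjusted p under 0.05. The number of arrays limits the precision.

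Groups followed titles, doses and timing. The symbol pattern, the 11 roles and the 14 gene lists were chosen with earlier results of these data known. Named are the 10 largest increases and decreases of each main comparison, up to 4 called genes a role, list and comparison, all dose and interaction calls, members with opposite calls, and paralogs. Genes outside this rule, such as those not called, were named after their values were seen. Alternatives covered the filter, scaling, array weights, variance trend, the replicate block, the choice of probe set and left-out arrays. The steps were tested on simulated data. The design, the filter and the call rule follow the methods of the study. The authors' own results of these comparisons were not used.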

Additional observations from a re-analysis of the deposited data

Results flagged for a closer look

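For 39 members the difference from control in the embryo groups and that in the adult groups were themselves different, by the limma test of embryo minus adult irradiation (adjusted p under 0.05). These 39 also passed the F-test over the 5 groups. The controls cancel from the embryo minus adult difference and enter its test only through the estimate of the spread, but they enter the F-test directly. By the comparison alone, without the F-test, 42 members were called. Among the histones the embryo minus adult difference was 1.22 for hist2h2l, 0.24 for h2az2b, -1.17 for histh1l1 and -1.32 for h1-10. High mobility group genes gave 1.40 for hmgn1a, 0.71 for hmgn6, 0.46 for hmgn7, 0.40 for hmgb2b and 0.27 for hmga1a, against -0.45 for hmgb3b, -0.68 for hmgb3a and -0.68 for hmgb1b.

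The deacetylases were at 1.1 (hdac8), 0.60 (sirt6) and 0.32 (hdac10), and the acetyltransferase kat5a was at -0.47. Lysine methyltransferases were at 0.78 (setd6), 0.47 (kmt5aa), 0.37 (setd7), -0.44 (setd3) and -0.83 (kmt2ca), and demethylases at -0.41 (kdm6al), -0.91 (kdm7aa), -0.99 (kdm5ba) and -1.12 (kdm6ba). prmt2 was at 0.46, prmt6 at 0.33 and mbd3a at 0.72. Remodelers gave 0.77 (smarca1), 0.21 (smarcb1a), -0.37 (smarca5), 0.64 (chd2) and -0.26 (chd1). Readers gave 1.2 (cbx1a), 0.71 (cbx5), 0.69 (ing2), 0.62 (cbx1b), 0.32 (brd3b) and -0.34 (ing3).

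prmt6 also differed between the times in its dose difference, with a time-dose interaction of -0.64. That call was lost in 9 of the 15 fits that left out 1 array. At 0.1 Gy the mean of prmt6 was 5.56 in embryo and 5.88 in adult arrays. At 1.0 Gy it was 6.64 in embryo and 5.67 in adult arrays. Its embryo minus adult difference of 0.33 therefore averages a lower level at 0.1 Gy and a higher level at 1.0 Gy.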

How the results depend on the processing

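The number of arrays limits these results, and the controls limit those against control most. Leaving out 1 array at a time gave 6 to 25 called members for the long-term response, 28 to 41 for the acute response, 28 to 41 for embryo against adult irradiation, 2 to 3 for dose within the embryo groups, 0 to 0 for dose within the adult groups, 0 to 2 for dose over both times (2 without control replicate 1) and 0 to 4 for the interaction. In all 15 such fits 6 of 24 long-term calls remained (chd2, histh1l1, kat5a, setd3, smarca4a and smarca5), 26 of 41 acute calls, 27 of 39 calls between embryo and adult irradiation and 2 of 3 embryo dose calls (brd2a was lost in 8 fits). The calls lost most often were those of chd7 (13 long-term, 12 acute) and chd1 (12 long-term) against control, of hmgb3b (12) and hmga1a (11) in the acute response, and of chd1, hdac10 and hmga1a (12 each), prmt6 (11) and h2az2b (10) between embryo and adult irradiation.

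An interquartile range of at least 0.5, which tests fewer genes, left 10, 21 and 23 called members in the long-term, acute and embryo against adult comparisons. Array weights gave 44 in the long-term response. Leaving out the 4 arrays whose source names read as another group gave 1 long-term and 18 acute calls, and leaving out control replicates 2 and 3, chosen after seeing the data, gave 1 and 20; the acute differences of setd3 (0.08 and 0.06) and smarca5 (0.11 and 0.09) changed sign. Subtracting array medians gave 2 interaction calls. Renewed quantile normalization moved the split of higher to lower calls to 10 and 8 for the long-term response, 15 and 21 for the acute response and 19 and 17 for embryo against adult irradiation, and in the long-term response an interquartile range of 0.5 moved it to 5 and 5 and array weights to 20 and 24. Apart from the construction of the filter and of the left-out arrays, the cause was not tested. Over single genes, 2276 values under alternatives kept direction and side of the threshold, 446 were no longer past it and 4 changed sign.

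With the replicate block, called members numbered 19, 36 and 32 in the long-term, acute and embryo against adult comparisons, 2 for dose within the embryo groups and 0 for the interaction. Replicate numbers did not pair the arrays: deviations from the group means of arrays with the same number correlated at -0.291 to 0.179 (median -0.059, 30 pairs), and those with other numbers at -0.232 to 0.271 (median 0.0334, 60 pairs).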
